A study of Mus musculus with 8 samples.

Results

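Dlgap4, Homer1, Baiap2 and Actn4 are genes of the postsynaptic scaffold and of the proteins that tie it to actin. Their sites were taken as all entries under these 4 gene names in the authors' deposited table, which lists sites with a different C-to-U level in aged than in young mouse cortex cells. That gave 9 of the 2055 listed sites: 2 in Dlgap4, 3 in Homer1, 2 in Baiap2 and 2 in Actn4. The aged cells came from cortex of APOBEC1-YTH mice aged 12 to 14 months at the start of treatment, which were given tamoxifen (20 mg/kg, every 24 h, 5 days) and sampled 7 days after the last dose. Values for young cells were available only in that table, the cells themselves being part of another series. Not given in the sources used here are the age and treatment of the young mice, the number of mice at either age and the promoter that drives the transgene. The sample labels describe dissociated and fixed whole cells, while the series' design text describes sorted neuronal nuclei.

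APOBEC1-YTH joins a cytidine deaminase to a YTH domain, a protein module that recognises N6-methyladenosine (m6A) in RNA. The fusion converts a C beside a methylated A to U, and the C-to-U change in sequencing reads marks the site in single cells (scDART-seq). In excitatory synapses the postsynaptic density holds receptors in place through layers of scaffold proteins. Dlgap proteins join the membrane-associated guanylate kinases to the deeper Shank layer, and Homer proteins crosslink Shank to metabotropic glutamate receptors. Baiap2, an inverse-BAR protein, bends membrane and couples small GTPases to actin assembly, and alpha-actinins such as Actn4 crosslink actin filaments. Methylation of m6A in mRNA is known to be dense in long internal exons and near the stop codon and the start of the 3' UTR.

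The 21 bases around each edited C are shown because coding and 3' UTR sites of these genes lay in different sequence. They were read from the GENCODE M21 transcripts (GRCm38, the build called mm10) on the strand of the gene. The 5 bases from 3 before to 1 after the edited C are in capitals, so the edited C is the fourth capital. Coordinates count from 1.
Dlgap4 site 1 (chr2:156701227-156701247, plus strand, coding): aagcaagGAACGggccaaggc
Dlgap4 site 2 (chr2:156701371-156701391, plus strand, coding): ccagcaaGAACGcacccagcc
Homer1 coding site (chr13:93391746-93391766, plus strand): cagagctGAACCagacagtgc
Baiap2 coding site (chr11:119982001-119982021, plus strand): aaataccAAACGgaacagagg
Actn4 coding site (chr7:28897016-28897036, minus strand): ttgagatGAACGggactctgg
Homer1 3' UTR site 1 (chr13:93402415-93402435, plus strand): aaaaaaaAGACAtgaaaaact
Homer1 3' UTR site 2 (chr13:93404913-93404933, plus strand): aaagcaaAAACTggaaaaaaa
Baiap2 3' UTR site (chr11:120001515-120001535, plus strand): attttttTTCCTaaaaacaaa
Actn4 3' UTR site (chr7:28893598-28893618, minus strand): aaaaagaAAACTttaaaaact

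All values are the authors' pooled values over 846 aged and 2623 young cells, and the 8 aged libraries (4 lanes of each of 2 sublibraries) have no value of their own. No value therefore has a replicate error, and no test over mice was possible. Cells in which the site was called edited are called methylated cells here. Mean C-to-U is the fraction averaged over all cells of an age with unmethylated cells at 0, and it equals the share of methylated cells times the C-to-U fraction within them. Shares carry exact (Clopper-Pearson) 95% intervals and ratios of shares exact conditional 95% intervals, which cover counting error only. How often the intervals of the ages lie apart over all listed sites was not counted, so their separation at a site is description only. Read depth at a site is not in the table, and cells without reads count as unmethylated, so a difference in methylation, in expression or in coverage cannot be told apart. Of 10 neuronal marker genes 7 have listed sites, of 5 astrocyte markers 1 (Slc1a2), and of 5 microglial and 5 endothelial markers 0. This counts listed sites, not expression. The 9 sites rest on 26 to 139 methylated cells over both ages, against a median of 54 for all listed sites.

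By mean C-to-U, all 5 coding sites of the 4 genes were higher in aged cells and all 4 sites in 3' UTRs were lower. Over the whole table, 57.8% of 804 coding sites were higher by the same measure and 75.9% of 697 sites in 3' UTRs were lower. The members therefore followed the direction more common in their region, and 9 sites cannot show whether they did so more often than others. All 2055 sites of the authors' deposited table, these 9 included, have an adjusted p under 0.05 there.

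Dlgap4 is a scaffold that binds Dlg and Shank proteins. Both of its sites lay in coding exon 3 of 13 of transcript Dlgap4-212, an exon of 1069 bases, and they were 144 bases apart. At site 1 (position 156701237 on chromosome 2) 96 aged cells were methylated, a share of 11.3% (9.29 to 13.7), against 43 young cells or 1.64% (1.19 to 2.20). The share was thus 6.92 times as high in aged cells (4.78 to 10.2), and the intervals of the ages did not overlap. Mean C-to-U was 9.30% in aged cells and 1.15% in young cells, a difference of 8.15 points that ranked 5 from the highest among all listed sites. Within methylated cells the C-to-U fraction was high at both ages, at 82.0% in aged and 70.3% in young cells. The adjusted p in the authors' deposited table was 3.51e-17.

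The other Dlgap4 site was far weaker although it shared the 5 bases GAACG and the exon. At site 2 (position 156701381) 19 aged cells were methylated, 2.25% (1.36 to 3.49), against 7 young cells, 0.267% (0.107 to 0.549). The ratio of shares was 8.42 (3.39 to 23.7), with an interval that overlaps that of site 1. The site's 26 methylated cells over both ages are close to 25, the smallest number at any listed site. With so few young cells it could be listed only with a high aged share, so the ratio is description only. Mean C-to-U was 0.132% in aged and 0.0657% in young cells, a log2 ratio of 1.0. Its adjusted p in the authors' deposited table was 1.46e-09. Unlike at site 1, the fraction within methylated cells was lower in aged cells, at 5.86% against 24.6% in young cells. Site 1 had 5.05 times the share of site 2 in aged cells and 6.14 times in young cells, while its mean C-to-U was 70.7 times that of site 2 in aged and 17.5 times in young cells. Sites this close can lie on the same reads, so they are not independent observations.

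Homer1 crosslinks Shank proteins and metabotropic glutamate receptors. It makes long forms with a coiled coil and a short, activity-induced form without it. Its coding site, at position 93391756 on chromosome 13 in exon 7 of 9 of Homer1-201, was methylated in 16 aged cells, 1.89% (1.08 to 3.05), against 25 young cells, 0.953% (0.618 to 1.40). These intervals overlapped, and the ratio of shares of 1.98 (0.990 to 3.87) included equality. Mean C-to-U was 0.875% in aged and 0.297% in young cells, a log2 ratio of 1.56, since the fraction within methylated cells was also higher, at 46.3% in aged against 31.2% in young cells. The adjusted p in the authors' deposited table was 0.000995.

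Both Homer1 sites in the 3' UTR had a far lower mean C-to-U in aged than in young cells (10.5 and 9.64 times as high in young cells at sites 1 and 2), but they differed in the share of cells. Site 1, at position 93402425, had 5 methylated aged cells, 0.591% (0.192 to 1.37), against 36 young cells, 1.37% (0.963 to 1.90), a ratio of 0.431 (0.132 to 1.10). Site 2, at position 93404923, had 11 methylated aged cells, 1.30% (0.651 to 2.31), against 17 young cells, 0.648% (0.378 to 1.04), a ratio of 2.01 (0.849 to 4.54). The shares thus pointed in opposite directions, and at both sites the interval of the ratio included equality. Mean C-to-U was 0.0393% in aged and 0.412% in young cells at site 1, a log2 ratio of -3.39. At site 2 it was 0.0206% in aged and 0.199% in young cells, a log2 ratio of -3.27. Within methylated cells the fraction was 6.64% in aged and 30.0% in young cells at site 1, and 1.59% in aged and 30.7% in young cells at site 2. The adjusted p in the authors' deposited table was 0.0412 at site 1 and 1.32e-05 at site 2. The low aged values at both sites rest on few cells of unknown read depth.

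Baiap2, which links membrane curvature to actin assembly in spines, had a coding site and a 3' UTR site in opposite directions. Its coding site, at position 119982011 on chromosome 11 in exon 6 of 14 of Baiap2-201, was methylated in 16 aged cells, 1.89% (1.08 to 3.05), against 11 young cells, 0.419% (0.210 to 0.749). The share was 4.51 times as high in aged cells (1.97 to 10.7), and the intervals of the ages did not overlap. The site's 27 methylated cells over both ages are close to 25, the smallest number at any listed site. With so few young cells it could be listed only with a higher aged share, so the ratio and the separation are description only. Mean C-to-U was 0.251% in aged and 0.0958% in young cells, a log2 ratio of 1.39, although the fraction within methylated cells was lower in aged cells, at 13.3% against 22.8% in young cells. Its 3' UTR site, at position 120001525 in exon 14 of 14 of Baiap2-202, was methylated in 6 aged cells, 0.709% (0.261 to 1.54), against 44 young cells, 1.68% (1.22 to 2.25). The ratio of shares was 0.423 (0.147 to 0.996), with a bound just under equality. Mean C-to-U there was 0.152% in aged and 0.316% in young cells, a log2 ratio of -1.06, and the fraction within methylated cells differed little, at 21.4% in aged and 18.9% in young cells. The adjusted p in the authors' deposited table was 0.0174 at the coding site and 0.0233 at the 3' UTR site.

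Actn4, a nonmuscle actin crosslinker, showed the same arrangement with higher edits at its coding site. That site, at position 28897026 on chromosome 7 in exon 17 of 21 of Actn4-201, was methylated in 24 aged cells, 2.84% (1.83 to 4.19), against 22 young cells, 0.839% (0.526 to 1.27). The share was 3.38 times as high in aged cells (1.82 to 6.33), and the intervals of the ages did not overlap. Mean C-to-U was 2.06% in aged and 0.513% in young cells, a log2 ratio of 2.0, with 72.5% within methylated aged cells and 61.2% within methylated young cells. The 3' UTR site, at position 28893608 in exon 21 of 21, was methylated in 7 aged cells, 0.827% (0.333 to 1.70), against 50 young cells, 1.91% (1.42 to 2.51), a ratio of 0.434 (0.166 to 0.962). Mean C-to-U there was 0.157% in aged and 0.409% in young cells, a log2 ratio of -1.38, with 19.0% within methylated aged and 21.4% within methylated young cells. The adjusted p in the authors' deposited table was 0.0134 at the coding site and 0.0291 at the 3' UTR site.

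**Figure D1:**
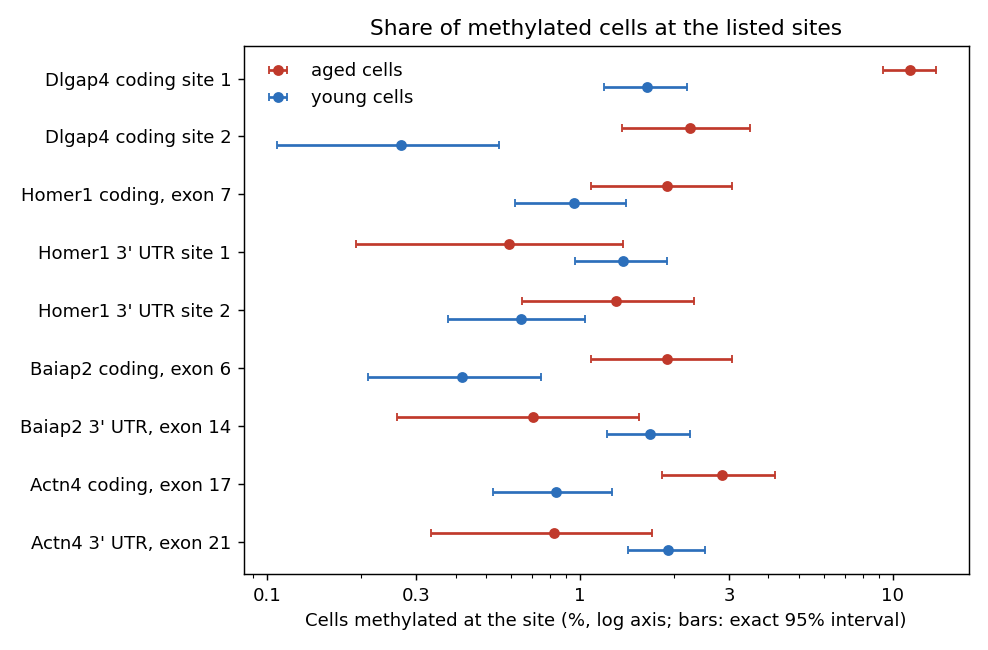
Percent of cells methylated at each of the 9 sites (horizontal log axis), with aged cells in red above young cells in blue and bars for exact 95% intervals over 846 aged and 2623 young cells. The intervals of the ages are apart at both Dlgap4 sites and the Baiap2 and Actn4 coding sites. They overlap at the Homer1 coding site and the 4 sites in 3' UTRs. How often intervals lie apart over all listed sites was not counted, and 94.7% of all listed coding sites were higher by share. Dlgap4 site 2 and the Baiap2 coding site, with 26 and 27 methylated cells, lie close to the smallest listed number of 25. They could be listed only with a higher aged share, so their separation is description only.

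**Figure D2:**
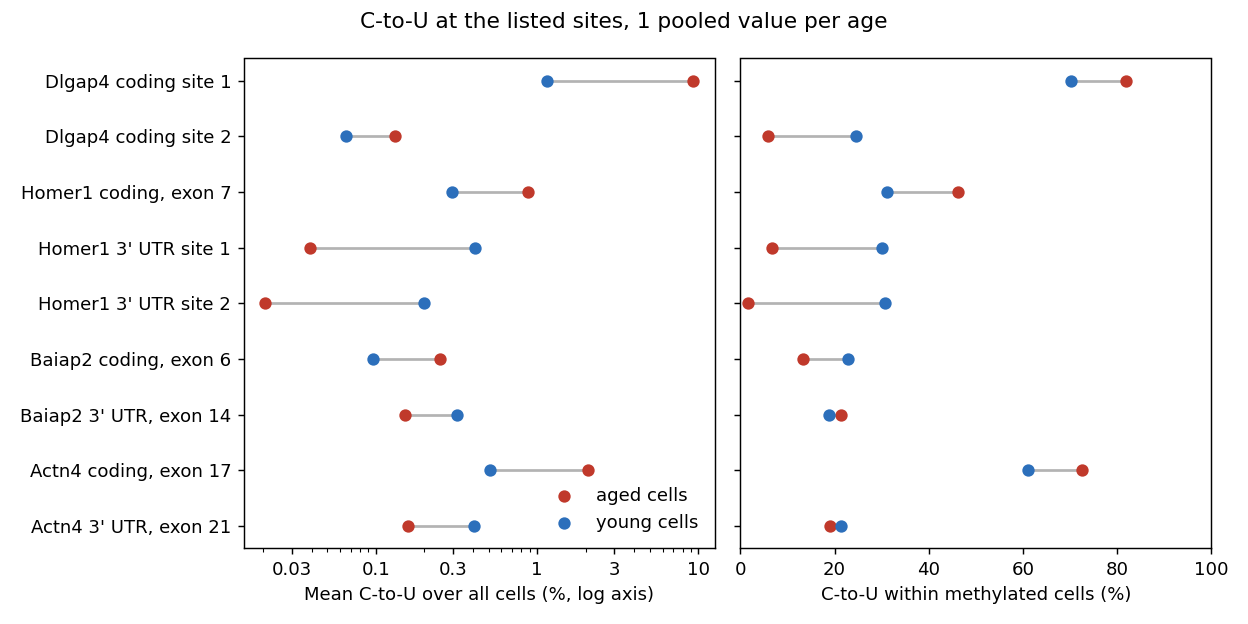
Mean C-to-U over all cells (left, percent, log axis) and C-to-U within methylated cells (right, percent), each point being the authors' pooled value for aged (red) or young (blue) cells, with no error available. On the left the aged point lies to the right at all 5 coding sites and to the left at all 4 sites in 3' UTRs, while on the right the order of the ages differs among coding sites.

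Coding and 3' UTR sites were then compared inside each gene. Homer1, Baiap2 and Actn4 had sites in both regions, and Dlgap4 had coding sites only. Of the methylated-cell counts of a gene, a cell counting at each site where it was methylated, the coding part was 24 of 31 or 77.4% (58.9 to 90.4) in aged and 22 of 72 or 30.6% (20.2 to 42.5) in young cells at Actn4. At Baiap2 it was 16 of 22 or 72.7% (49.8 to 89.3) in aged and 11 of 55 or 20.0% (10.4 to 33.0) in young cells. At both genes the intervals of the ages lay apart. At Homer1 it was 16 of 32 or 50% (31.9 to 68.1) in aged and 25 of 78 or 32.1% (21.9 to 43.6) in young cells, with overlapping intervals. The coding part was not computed for other genes with listed sites in both regions. The separation at Baiap2 and Actn4 is therefore description only. By share, 94.7% of all listed coding sites were higher in aged cells, but only 49.2% of all listed 3' UTR sites. Whether a higher coding part in aged cells is particular to these genes is thus not shown. The coding and 3' UTR sites of a gene are not held by the same set of annotated transcripts. The part of expression, of coverage of the regions and of the choice of transcript ends in the result was not tested.

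**Figure D3:**
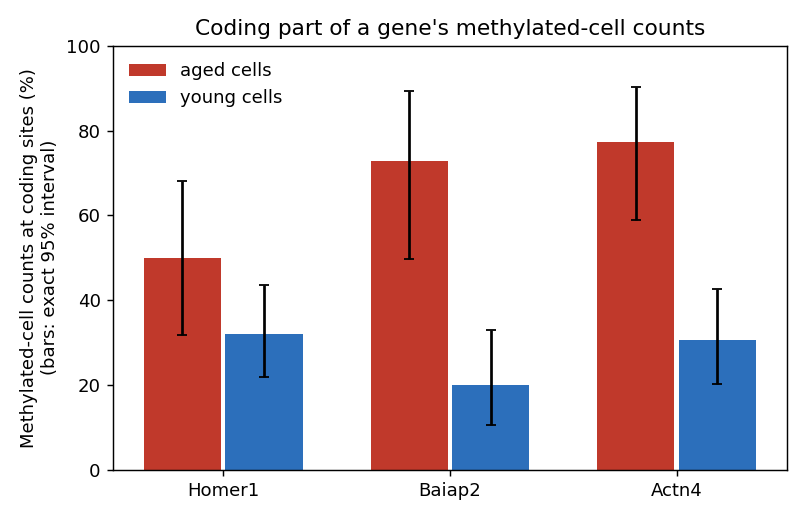
Coding part of each gene's methylated-cell counts (percent, bars from 0 with exact 95% intervals) in aged (red, left) and young (blue, right) cells for Homer1, Baiap2 and Actn4. The aged bars stand at 50%, 72.7% and 77.4% and the young bars at 32.1%, 20.0% and 30.6%. The coding part was not computed for other genes.

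By summed mean C-to-U the coding part was 93.6% in aged and 32.8% in young cells at Homer1, 62.3% in aged and 23.2% in young cells at Baiap2, and 92.9% in aged and 55.7% in young cells at Actn4. All coding sites higher and all 3' UTR sites lower by mean occurred in 21 of the 74 genes with listed sites in both regions (28.4%), and all 3 of these genes were among the 21. By share the arrangement held in 22 of 74 genes (29.7%), with Baiap2 and Actn4 among them and Homer1 not, because of its 3' UTR site 2. With 3 or fewer sites in a gene such an arrangement is easier to meet than in genes with many sites.

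The difference in mean C-to-U splits on the log2 scale into the part from the share of methylated cells and the part from C-to-U within them. At all 5 coding sites the share part was positive and the larger, between 0.99 (Homer1) and 3.07 (Dlgap4 site 2). It was the larger in size at 453 of 797 coding sites of the table (56.8%), and at 2 of the 4 members in 3' UTRs, against 331 of 686 in the table (48.3%). The within-cell part was positive, though smaller than the share part, at Dlgap4 site 1 (0.22), the Actn4 coding site (0.24) and the Homer1 coding site (0.57). It was negative at the Baiap2 coding site (-0.78) and at Dlgap4 site 2 (-2.07), where a larger share of cells was methylated but at a lower fraction in each. Both sites lie close to the smallest listed number of methylated cells, so a positive share part was a condition of their being listed. In the 3' UTRs, Baiap2 and Actn4 had share parts of -1.24 and -1.20 with within-cell parts of 0.18 and -0.17. Homer1 was different: the within-cell part was -2.18 at 3' UTR site 1, beside a share part of -1.22, and -4.27 at 3' UTR site 2, beside a share part of 1.0.

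Across the table both parts were positive at 274 of 797 coding sites with a methylated aged cell (34.4%), while the share was higher and the fraction within cells lower at 487 (61.1%). Among the 5 coding sites of the 4 genes the numbers were 3 and 2. By share, 5 of the 5 coding sites were higher, where 94.7% of all coding sites were. By share, 3 of the 4 sites in 3' UTRs were lower, where 50.8% of all 3' UTR sites were. Within methylated cells, C-to-U was higher at 3 of the 5 coding sites, where it was at 35.6% of all coding sites, and lower at 3 of the 4 sites in 3' UTRs, where it was at 63.3%.

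**Figure D4:**
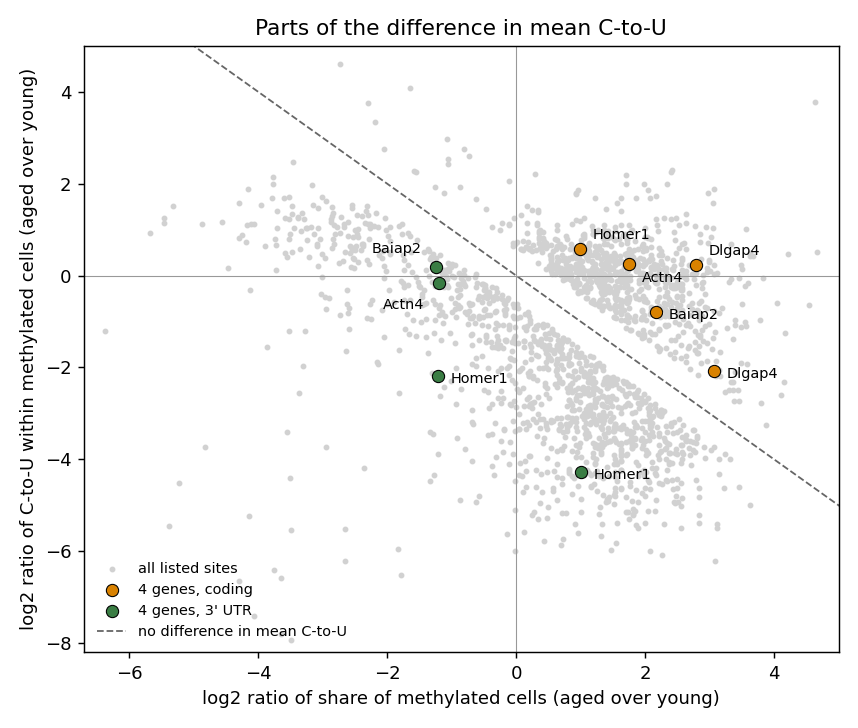
Each point is a listed site, with the log2 ratio of the share of methylated cells (aged over young) on the horizontal axis and the log2 ratio of C-to-U within methylated cells on the vertical axis; grey points are all sites with a methylated aged cell, and sites above the dashed line have a higher mean in aged cells. The 5 coding sites of the 4 genes (orange) lie right of 0 and above the line, and the 4 sites in 3' UTRs (green) lie below it, with Homer1 3' UTR site 2 alone among them to the right of 0.

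The sites were spread along the transcripts. Dlgap4 sites 1 and 2 lay 2418 and 2274 bases before the stop codon, 18.8% and 23.6% of the way through the coding sequence. The Baiap2 coding site was 1232 bases before it, the Actn4 coding site 694 and the Homer1 coding site 313. In the 3' UTRs Homer1 site 1 lay 196 bases after the stop codon, the Baiap2 site 421, the Actn4 site 621 and Homer1 site 2 as far as 2694, which is 206 bases from the annotated transcript end. Of all listed coding sites more than 1000 bases before the stop codon, 315 of 517 (60.9%) were higher by mean in aged cells. Of those from there to the stop codon, 150 of 287 (52.3%) were higher. The share was 65 of 285 (22.8%) up to 500 bases after it and 103 of 412 (25.0%) beyond. The members' directions thus differed before and after the stop codon, as the shares over all listed coding and 3' UTR sites did. The nearest members lay 313 bases before and 196 bases after it, so where between them the direction changed is not shown.

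**Figure D5:**
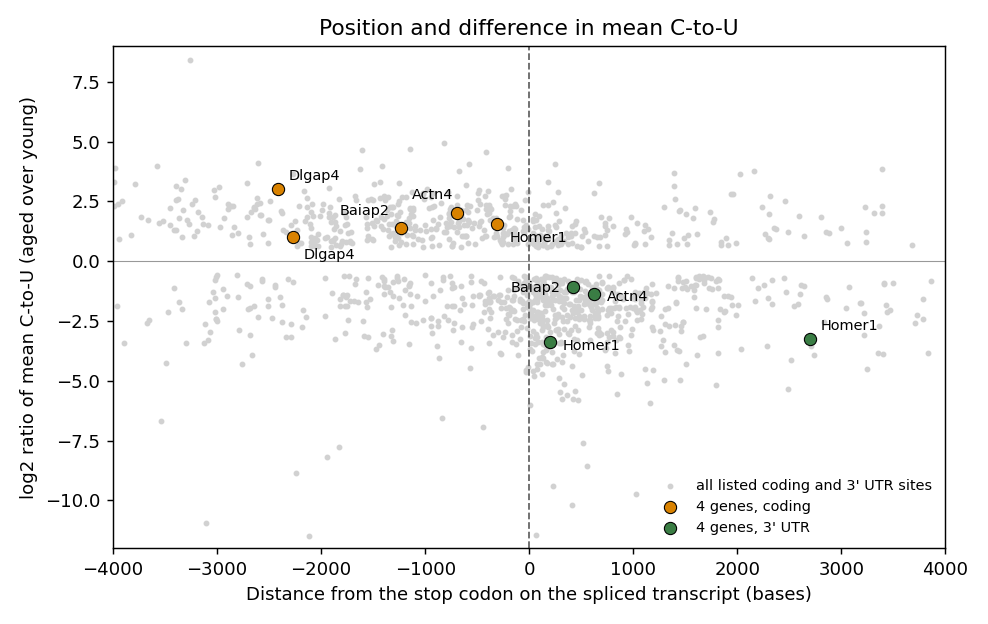
Log2 ratio of mean C-to-U (aged over young, vertical axis) against distance from the stop codon on the spliced transcript (horizontal axis, bases; negative before it). Orange points are the coding and green points the 3' UTR sites of the 4 genes, and grey points are 1277 listed coding and 3' UTR sites, 206 more than 4000 bases away not being drawn; the orange points lie between 1.0 and 3.01 and the green points between -3.39 and -1.06.

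Annotated transcripts of a gene do not all hold its sites. Both Dlgap4 sites are coding in 4 of 12 coding transcripts and lie outside the other 8. The Homer1 coding site is in 6 of 11 coding transcripts, within an intron of 1 and outside the 4 others. Homer1 3' UTR site 1 is in 3 coding transcripts and site 2 in 1 (Homer1-202). The Baiap2 coding site is shared by all 5 coding transcripts, while its 3' UTR site is in the 3' UTR of 3 and in an intron of 2. The Actn4 coding site is coding in 3 of 6 coding transcripts and its 3' UTR site lies in 1. No other annotated gene overlaps any of the 9 sites, and the 41 bases around each occur in no other annotated gene. Use of these transcripts at either age was not analysed here.

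Read as U, the edited base alters the encoded residue at 3 of the 5 coding sites. These are R187W and R235C at Dlgap4 sites 1 and 2 (numbered on Dlgap4-212) and T125M at the Baiap2 coding site (on Baiap2-201). The Homer1 and Actn4 coding sites fall at the last base of a codon and leave asparagine 250 and asparagine 681 as they are. These changes describe where the assay's mark falls in the reading frame. They say nothing of protein made in wild-type mice.

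The bases around the edited C differed between the regions, as the sequences above show. The C followed an A at 8 of the 9 sites, and at all 8 the bases ending at the C were GAC or AAC on the strand of the gene. Of the 1966 listed sites with 21 bases read and a C at the listed position, 72.0% (69.9 to 74.0) had GAC or AAC. The exception was the Baiap2 3' UTR site, where a C precedes the edited C after a run of T. In the coding sites the base after the edited C was G at 4 of 5, against 398 of 804 coding sites in the table (49.5%). In the 3' UTRs it was G at 0 of 4, against 85 of 691 (12.3%). The 3' UTR sites also lay in A-rich sequence. A made up 9 to 15 of their 21 bases. The median was 14.5, against 10 (quartiles 7 and 14) over the same 691 sites. The coding sites held 5 to 11, with a median of 7, against a median of 8 over all coding sites.

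Both Dlgap4 sites and the Actn4 coding site shared the 5 bases GAACG. That sequence occurs 3 times in Dlgap4-212, of which 2 are listed sites, and 3 times in Actn4-201, of which 1 is. It was present at 149 coding sites of the table (18.5%), in 116 genes, and 132 of these (88.6%, 82.4 to 93.2) were higher by mean in aged cells, against 333 of 655 other coding sites (50.8%, 46.9 to 54.7). By share of methylated cells the sets were much closer, with 146 of 149 GAACG sites (98.0%, 94.2 to 99.6) and 615 of 655 other coding sites (93.9%, 91.8 to 95.6) higher. Within methylated cells, the median C-to-U over GAACG coding sites was 59.9% in aged and 49.9% in young cells, and over the other coding sites it was 6.42% in aged and 20.0% in young cells. Dlgap4 site 1 and the Actn4 coding site lay above the GAACG medians at both ages. Dlgap4 site 2, with the same 5 bases, lay well below them. Whether genomic C-to-T variants were removed is not stated in the sources used here, and such variants were not checked at the GAACG sites, Dlgap4 site 1 included. The 3 sites of these genes are counted among the 149, and this sequence had been noticed in the same data, so the counts are a description.

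Other genes of the postsynaptic scaffold and of its actin links had listed sites in both regions. Of 68 further genes in 2 lists, 15 had listed sites, 38 in all. By mean C-to-U 15 of the 38 sites were higher in aged cells (39.5%), where 41.5% of all listed sites were. Split by region, 8 of 18 coding (44.4%) and 6 of 18 3' UTR sites (33.3%) were higher by mean, where 57.8% and 24.1% of the table's coding and 3' UTR sites were. The exact 95% interval of the coding percent, 21.5 to 69.2, includes the table's 57.8%. Among scaffold genes 3 of 5 coding sites were higher by mean (exact 95% interval 14.7 to 94.7%), and among actin-linking genes 5 of 13 (13.9 to 68.4%). These intervals overlap widely, so a difference between the 2 lists is not shown. By share of methylated cells, 17 of the 18 coding and 9 of the 18 3' UTR sites were higher, close to the 94.7% and 49.2% of the whole table. The median log2 ratio of mean C-to-U was -1.14 over these sites, against -0.87 over all listed sites with a methylated aged cell. The lists were chosen with earlier results of these data known.

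Of the scaffold genes, 7 of 14 sites outside Dlgap4 and Homer1 were higher by mean. Dlgap1, a close relative of Dlgap4, had 2 of 5 sites higher by either measure, and its site with the largest difference lay in the 3' UTR, with a mean of 1.36% in aged and 0.351% in young cells. Shank1, the scaffold that Dlgap and Homer proteins bind, had all 3 of its sites higher by share but 2 by mean, and at its largest, a coding site, the mean was 1.83% in aged and 0.539% in young cells. Nsmf, a messenger from synapse to nucleus, had 1 site, coding, at 1.62% in aged and 0.298% in young cells. Dlg2, a guanylate kinase scaffold, had both of its 2 sites higher by share and 1 by mean, in the 5' UTR, at 1.45% in aged and 0.630% in young cells. Dlgap1 had fewer methylated aged than young cells at that 3' UTR site as a share, at 4.14% (2.90 to 5.71) against 4.46% (3.70 to 5.32), so its higher mean came with a higher fraction within cells, 32.9% in aged and 7.86% in young cells.

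Of the actin-linking genes, 8 of 24 sites outside Baiap2 and Actn4 were higher by mean. Add2, an adducin that caps actin filaments, had 2 of its 6 sites higher by mean but all 6 by share, and its largest difference was at a coding site with 3.30% in aged and 1.45% in young cells. Kalrn, a signalling protein of dendritic spines, had 3 of its 6 sites higher by mean but all 6 by share, with 2.71% in aged and 0.905% in young cells at a coding site. Actb, cytoplasmic actin itself, had 0 of 3 sites higher by either measure. At its largest, in the 3' UTR, methylated cells made up 2.01% (1.17 to 3.20) of aged and 14.3% (13.0 to 15.7) of young cells. Cyfip2, a subunit of the WAVE complex, had 4 of 5 sites higher by share but 1 by mean, a 3' UTR site with 1.85% in aged and 0.329% in young cells.

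Genes most like the members were found from the median log2 ratios (aged over young) of mean C-to-U and of the share of methylated cells, as the Euclidean distance over coding and 3' UTR sites. Among 72 genes that could be compared, Actn4 was the nearest to Baiap2 and Baiap2 the nearest to Actn4, at a distance of 0.805 over 4 values, where the median distance was 3.83 from Baiap2 and 4.06 from Actn4. The next nearest were Celf2 (1.56) and Eef1a1 (1.67) to Baiap2, and Eef1a1 (1.28) and Smarca2 (1.43) to Actn4. Nearest to Homer1 were Kif1b (0.817), Ank3 (0.847) and Zwint (0.977), with a median distance of 4.17. Dlgap4, compared over the 2 values of its coding sites with 395 genes, was nearest to Ntm (0.338), Snrnp70 (0.352) and Helz (0.358), with a median distance of 2.0. All these values come from the same 2 pools of cells, and many rest on 1 site in a region.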

How the data were processed

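Each of the 8 samples is an aged cortex library (split-pool barcoding of fixed cells, per the labels' protocols). The series' design text describes sorted nuclei instead. The submitters' processing notes name mm10 and STAR 2.7.5, and the design text names Bullseye. Not given in the sources used here are the test, the read filters, any removal of genomic variants and any equalising of depth. Per the file headers, the authors deposited for each site the percent of cells methylated, mean C-to-U as a fraction over all cells (printed here as percent), counts of methylated cells, a p-value and an adjusted p-value, and the log2 of young over aged mean C-to-U, whose sign was turned here. Its smallest absolute log2 ratio is 0.58 and its smallest number of methylated cells 25, so smaller differences and rarer sites lie outside it. The percentages gave 2623 young cells at all 2055 sites and 846 aged cells at the 2036 where an aged cell was methylated.

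C-to-U within methylated cells was computed as mean C-to-U divided by the share of methylated cells. Each site was looked up among the GENCODE M21 transcripts (GRCm38) of its gene, with 781 gene names matched as given, 6 by an older name and 2 unmatched, each site taking its region from the highest-ranked transcript with an exon there. Positions were read as counted from 0, which put a C at 1982 of 2049 placed sites, while the other reading gave C at 209. Intervals were computed with scipy 1.17.1 and tried on simulated tables. The 4 genes, the lists and the comparisons were chosen with earlier results of these data known. All listed sites of the 4 genes were printed. From the other lists up to 4 genes each were named by the largest absolute difference in mean C-to-U, and 3 most alike genes per member. Alternatives were the measure of direction, a minimum of 50 methylated cells, merging sites within 10 bases, sites after A, and another choice of transcript.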

Additional observations from a re-analysis of the deposited data

How the results depend on the processing

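The percent of sites higher in aged cells was recomputed for the 4 genes together, their coding and 3' UTR sites, each gene and the postsynaptic lists. Of 41 recomputed values, 37 stayed within the exact 95% interval of the reported percent, which for so few sites is wide. The other 4 were as follows. With at least 50 methylated cells required, Baiap2 and Actn4 each kept only their 3' UTR site, so that 0% of sites were higher at either gene, against 50% as reported. With sites after A alone, Baiap2 kept only its coding site, so that 100% were higher. By share of methylated cells, 72.3% of the sites of the postsynaptic lists (the 4 genes included) were higher, against 42.6% by mean. Homer1 has no site with 50 methylated cells and gave no value there. No paired analysis was possible because the table holds 1 pooled value per age, and for the same reason no library could be left out. The number of methylated cells, 5 to 16 in aged cells at 6 of the 9 sites, limits the precision, and the read depth behind them is unknown.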
